A study of Mus musculus with 7 samples.

Results

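Mouse dermal endothelial cells (MDEC) were profiled on 1 array beside 6 arrays of the B16F10 mouse melanoma line, so MDEC made up 1 of the 7 samples of the study. The 6 B16F10 arrays came from the parental line and from 5 clones named A1 to A5. The labels gave parental cells and clone A1 as PECAM1-, and clones A2 to A5 and MDEC as PECAM1+. All were cultured mouse cells whose total RNA was hybridised to Affymetrix Mouse Gene 1.0 ST arrays, a single-colour design with probes along each transcript. B16F10 cells grew in DMEM with serum, and MDEC in DMEM with a commercial endothelial growth supplement kit, so cell type and medium cannot be told apart. Both were detached with Accutase before RNA extraction. The labels did not say whether MDEC were primary cells or a line, and the strain, sex and passage of MDEC were not given in the sources used here. The B16F10 arrays are related cultures of 1 tumour line rather than separate melanomas.

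For every gene, the MDEC value was set against the mean of the 6 B16F10 arrays on the log2 scale, where 1 unit is a 2-fold difference. A gene was counted only if MDEC lay outside the range of all 6 B16F10 arrays and at least 2 log2 units (4-fold) from their mean. No test was run, because the spread of MDEC itself was not measured, and no p-value is given. Of 19938 genes measured, 540 (2.71%) were counted higher in MDEC and 410 (2.06%) lower. With 2-fold in place of 4-fold the counts were 1285 (6.44%) and 1365 (6.85%), and 10543 genes (52.9%) lay outside the B16F10 range by any amount. These shares over all genes are the ones to set beside every list count below. The median difference over all genes was 0.00. The genes nearest the 4-fold limit were Bcar3 (2.0015) and Dpysl3 (2.0037) inside it and Lcp2 (1.998) and Traf1 (1.997) outside it. On the lower side Gstp1 (-2.0013) and Slc16a1 (-2.0024) lay inside and Cenpq (-1.9996) and Tln2 (-1.9995) outside.

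Endothelial cells line blood and lymph vessels, are joined to each other by VE-cadherin, and depend on the VEGF and angiopoietin receptors. Their identity is held by ETS-family and SOX-F transcription factors. Melanocytes derive from the neural crest and make melanin in melanosomes, with the factor MITF driving the pigment enzymes, and B16F10 is a pigmented line that keeps this program.

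Promoter sequences of 4 pigment genes and 3 endothelial surface genes are shown, chosen among the members of those lists whose window holds the marked word, because regulators of each lineage are known to bind such words. RefSeq windows of the assembly GRCm38.p6 run from 250 bases before to 50 bases after the start of transcription, 5′ to 3′ on the gene's own strand. Capitals mark CATGTG, an E-box core of the kind MITF reads, in the pigment genes, and CAGGAAG, a core of the kind ETS factors read, in the endothelial genes. Either strand was searched, so CACATG and CTTCCTG are the same words read backwards.
Tyrp1, chr4:80833963-80834262, plus strand: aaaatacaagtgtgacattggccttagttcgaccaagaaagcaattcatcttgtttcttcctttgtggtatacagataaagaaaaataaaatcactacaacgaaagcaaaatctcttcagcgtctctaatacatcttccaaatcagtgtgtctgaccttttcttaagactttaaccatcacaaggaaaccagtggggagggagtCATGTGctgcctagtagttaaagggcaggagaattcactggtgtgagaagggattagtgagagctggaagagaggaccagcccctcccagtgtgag
Tyr, chr7:87493463-87493762, minus strand: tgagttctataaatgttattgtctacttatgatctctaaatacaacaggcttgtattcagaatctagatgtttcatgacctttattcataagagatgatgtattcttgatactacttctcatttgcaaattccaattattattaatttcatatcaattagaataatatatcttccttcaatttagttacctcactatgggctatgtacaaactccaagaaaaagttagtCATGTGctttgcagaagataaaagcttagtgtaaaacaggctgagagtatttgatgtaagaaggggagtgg
Dct, chr14:118052197-118052496, minus strand: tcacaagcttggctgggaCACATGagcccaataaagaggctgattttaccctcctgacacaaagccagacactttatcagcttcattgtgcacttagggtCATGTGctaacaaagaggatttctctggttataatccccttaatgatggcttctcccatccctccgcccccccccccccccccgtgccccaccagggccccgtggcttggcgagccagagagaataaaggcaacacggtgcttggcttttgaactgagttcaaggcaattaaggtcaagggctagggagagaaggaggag
Slc24a5, chr2:125067877-125068176, plus strand: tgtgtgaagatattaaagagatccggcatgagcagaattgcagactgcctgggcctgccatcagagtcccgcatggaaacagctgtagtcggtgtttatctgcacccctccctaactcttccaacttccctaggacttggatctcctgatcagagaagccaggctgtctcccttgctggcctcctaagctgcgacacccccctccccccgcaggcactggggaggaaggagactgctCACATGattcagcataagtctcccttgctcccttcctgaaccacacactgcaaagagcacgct
Cd34, chr1:194938571-194938870, plus strand: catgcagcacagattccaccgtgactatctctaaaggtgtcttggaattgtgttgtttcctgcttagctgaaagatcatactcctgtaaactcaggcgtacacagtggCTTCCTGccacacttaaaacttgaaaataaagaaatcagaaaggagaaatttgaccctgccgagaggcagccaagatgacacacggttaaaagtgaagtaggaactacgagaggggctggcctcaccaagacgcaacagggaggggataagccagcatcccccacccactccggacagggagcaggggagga
Emcn, chr3:137340828-137341127, plus strand: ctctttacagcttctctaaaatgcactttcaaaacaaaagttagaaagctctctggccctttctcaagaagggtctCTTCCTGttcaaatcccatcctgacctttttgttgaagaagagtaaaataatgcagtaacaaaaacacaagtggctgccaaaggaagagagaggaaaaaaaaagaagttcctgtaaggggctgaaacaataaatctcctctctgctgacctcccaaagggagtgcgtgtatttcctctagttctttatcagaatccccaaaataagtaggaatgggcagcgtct
Robo4, chr9:37401722-37402021, plus strand: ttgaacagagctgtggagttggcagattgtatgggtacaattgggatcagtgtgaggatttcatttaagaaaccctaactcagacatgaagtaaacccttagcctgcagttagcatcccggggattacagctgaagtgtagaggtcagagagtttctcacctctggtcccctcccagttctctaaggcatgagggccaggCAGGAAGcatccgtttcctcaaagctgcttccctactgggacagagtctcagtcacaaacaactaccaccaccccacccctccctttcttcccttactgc

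Of the 15 genes of melanin synthesis and melanosome structure, 10 had a window in the table, and 8 of the 10 genes held CATGTG. Counted by window this was 9 of 13 (69.2%), against 4650 of 32851 windows (14.2%) in the whole table. Counted from the start of transcription, it began at position -46 in Tyrp1, -21 in Tyr, -13 in Slc24a5, and at both -232 and -150 in Dct. Among the genes counted lower in MDEC, 10.4% of 451 windows held CATGTG, against 10.8% of the windows of all measured genes. CAGGAAG stood in 5 of 7 endothelial surface genes with a window, 6 of 9 windows (66.7%), against 13.3% of all windows. It began at position -142 in Cd34, -174 in Emcn and -50 in Robo4. The melanin genes also held it, in 3 of 13 windows (23.1%), and the endothelial transcription factors in 4 of 19 (21.1%). It stood in 2 of 17 windows of the endothelial receptor genes (11.8%), near the share of the whole table. Among the genes counted higher in MDEC, 15.2% of 538 windows held it, against 12.4% for all measured genes. Such matches describe letters in a window and are not binding sites.

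The array also carried microRNA probe sets. Of 296 microRNA genes measured, 0 were counted lower in MDEC and 1 higher, a smaller share than the 2.71% of all genes counted higher. It was Mir126a, which lies within the endothelial gene Egfl7 and was at 6.88 in MDEC against 2.61, 2.72 and 2.73 (lowest, median and highest) in B16F10. Egfl7 itself was at 12.28 against 7.84 to 8.14. A further 4 microRNA genes were 2-fold higher: Mir10b, which neighbours Hoxd4, and Mir181b-1, Mir568 and Mirlet7e. This too was a smaller share than over all genes, where 6.44% were 2-fold higher. Mir10b was at 4.56 against 2.66 to 2.85. The probe sets read precursor transcripts and cannot tell mature arms apart. For Mir126a, Mir10b, Mir181b-1 and Mirlet7e, 1 mature form is printed with the seed, bases 2 to 8, in capitals, as RefSeq gives it. The form of Mir568 and the other arms of Mir10b, Mir181b-1 and Mirlet7e are not printed.
mmu-miR-126a-3p: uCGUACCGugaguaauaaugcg
mmu-miR-10b-5p: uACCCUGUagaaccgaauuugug
mmu-miR-181b-5p: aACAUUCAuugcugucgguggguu
mmu-let-7e-5p: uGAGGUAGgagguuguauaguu
No seed was shared among these 4.

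Levels of 8 markers of the labelled cell types are given first. They were chosen with earlier results of these data known, so they describe the label and are not a check of it. Endothelial genes that did not follow them, among them Vwf, Mmrn2 and Eng, are given below. The 5 endothelial markers were all far above B16F10. Cdh5, which encodes VE-cadherin, was at 12.41 in MDEC and at 4.86, 5.02 and 5.08 (lowest, median and highest) in B16F10, a 171-fold difference. Cd34, a sialomucin of endothelium and progenitors, was at 12.09 against 4.76, 4.87 and 5.03. Emcn (endomucin) was at 11.10 against 3.99, 4.05 and 4.10. The B16F10 SD of these 3 genes was 0.09, 0.10 and 0.04 (n = 6), and no B16F10 array came near MDEC. Cd93, a C-type lectin of endothelium, was at 11.11 against 3.88, 4.23 and 4.24. Lyve1, the hyaluronan receptor of lymphatic endothelium, was at 12.16 against 4.95, 5.26 and 5.30. The 3 melanocyte markers went the other way. Tyrp1, a melanin synthesis enzyme, was at 4.95 in MDEC against 12.89, 12.99 and 13.09 in B16F10, a 261-fold difference. Dct (dopachrome tautomerase) was at 4.99 against 12.34, 12.72 and 12.89, and Pmel, which forms the fibrils of the melanosome, at 6.16 against 12.17, 12.57 and 12.82. The files give no detection calls, so whether 4.95 is background was not known. Folds against such low values are those of the deposited values.

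**Figure D1:**
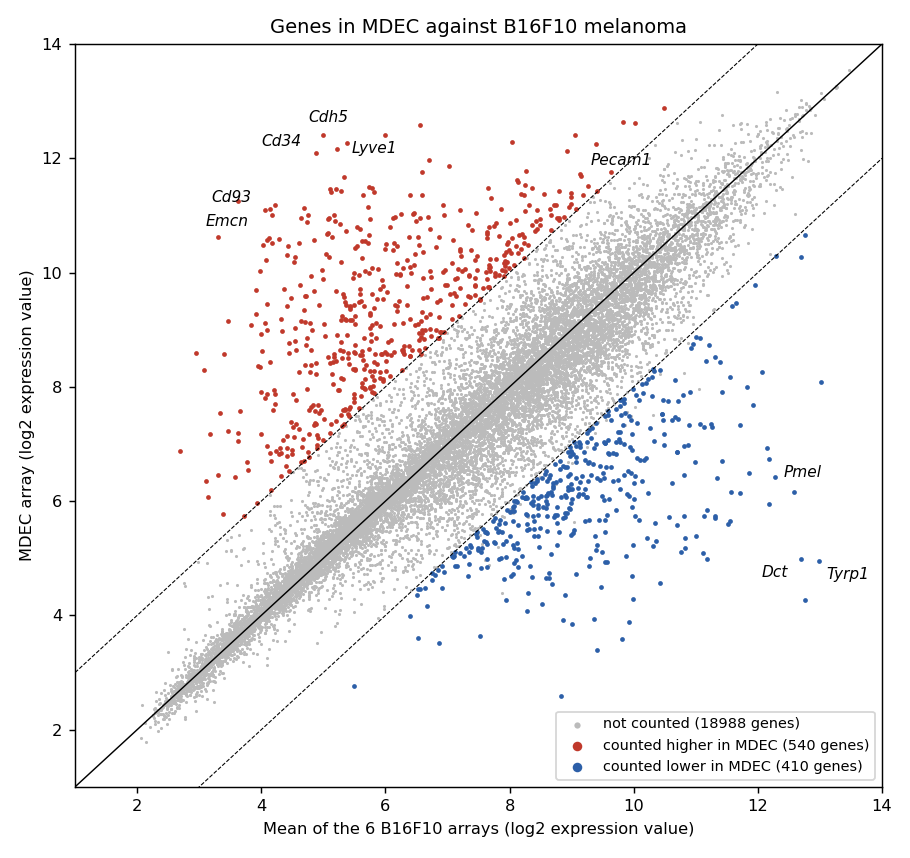
Each point is a gene, with the mean of the 6 B16F10 arrays on the x axis and the MDEC array on the y axis, both as log2 expression values; the solid line marks equal values and the dashed lines a 4-fold difference. The 540 genes counted higher (red) and 410 counted lower (blue) include the named endothelial markers at the upper left and the pigment genes at the lower right.

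Markers of other cells were looked at in the same way. Of 26 leukocyte and platelet markers, 4 were counted higher: Cd53 at 11.001 against 3.93 to 4.23, Lyz2 at 11.76 against 4.78 to 8.03, Itgb3 and Cd68. The defining leukocyte gene Ptprc was at 4.99 in MDEC, inside the B16F10 range of 4.96 to 5.15, and so were Csf1r, Adgre1, Spi1 and Laptm5. The mean level of the list was 5.95 in MDEC and 5.07 to 5.24 in B16F10. Of 27 fibroblast and mural markers, Thy1 alone was counted, at 10.06 against 5.72 to 6.02, while Dcn, Lum, Rgs5, Col1a1 and Acta2 lay inside the B16F10 range. That list's mean was 5.97 in MDEC and 5.74 to 6.13 in B16F10. Krt18 was the 1 counted of 19 keratinocyte and epithelial markers, where list means were 5.69 and 5.44 to 5.51. None of 15 adipocyte and muscle markers was counted, with Adipoq at 4.34 against 3.83 to 4.15 and means of 5.90 and 5.69 to 5.86. The shares over all genes were 2.71% counted higher and 2.06% lower. The part of other cell types in the results was not tested. In such bulk samples, fewer cells of a type and less RNA per cell cannot be told apart.

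Across 10 endothelial lists with 155 genes measured, 73 (47.1%) were counted higher in MDEC and 5 (3.23%) lower, and the median difference was 1.74, against 2.71%, 2.06% and 0.00 over all genes. Among 18 surface and junction molecules, 14 were counted higher, with a median difference of 4.09. Besides the markers above these were Stab1, a scavenger receptor (11.36 against 5.46 to 5.67), Esam, a junctional adhesion molecule (10.77 against 5.47 to 5.67), Clec14a, Cdh13, Egfl7, Robo4, Plvap, Ecscr, Icam2 and Pecam1. The exceptions were as clear. Vwf, which encodes von Willebrand factor, was at 6.41 in MDEC and at 6.55, 6.86 and 7.05 in B16F10, so MDEC was below all 6. Mmrn2 was at 4.93, inside the B16F10 range of 4.77 to 5.38. Cldn5, the claudin of endothelial tight junctions, was 1.74 log2 units higher (7.82 against 5.86, 6.11 and 6.23) and passed only the 2-fold limit. Jam2, a junctional adhesion molecule, was the 1 counted lower, at 5.08 against 8.18, 8.75 and 9.09.

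Pecam1 was the surface gene where the reference mattered. MDEC was at 11.72, parental cells at 5.27, clone A1 at 5.43 and clones A2 to A5 between 10.996 and 11.07. The difference from the mean of 6 was 2.58, with a B16F10 SD of 2.93, and the array nearest to MDEC lay 0.64 below it. Without clone A1 the difference was 1.84 and Pecam1 was no longer counted. It was also not counted without parental cells, against the PECAM1+ clones alone, against the median or against the nearest array.

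Of 22 endothelial receptors, 15 were counted higher and 0 lower, with a median difference of 3.81. Among the receptor kinases, Tie1 was at 11.41 in MDEC against 5.59, 5.86 and 5.87 in B16F10. Kdr (VEGF receptor 2) was at 9.15 against 4.54, 4.65 and 4.68. Tek, the angiopoietin receptor, was at 8.37 against 4.62, 4.72 and 4.84, and Flt1 at 9.54 against 5.73, 5.89 and 5.98. The MDEC array lay above all 6 B16F10 arrays for each of these 4 kinases, as it did for 26.5% of all genes. The G-protein-coupled receptors held the largest receptor difference, S1pr1, the sphingosine 1-phosphate receptor, at 10.95 against 4.50, 4.68 and 4.79. Calcrl and its partners Ramp2 and Ramp3, which together bind adrenomedullin, were 4.24, 3.11 and 3.93 higher, and Adm, which encodes adrenomedullin, was 5.14 higher. Not all receptors differed. Eng (endoglin) was at 11.73 in MDEC, inside the B16F10 range of 10.95 to 11.75, and Nrp1, Plxnd1, Bmpr2 and Aplnr also lay inside it. Acvrl1 (ALK1), a BMP receptor of endothelium, was lower in MDEC by the 2-fold limit, at 7.81 against 8.64, 8.93 and 9.14.

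**Figure D2:**
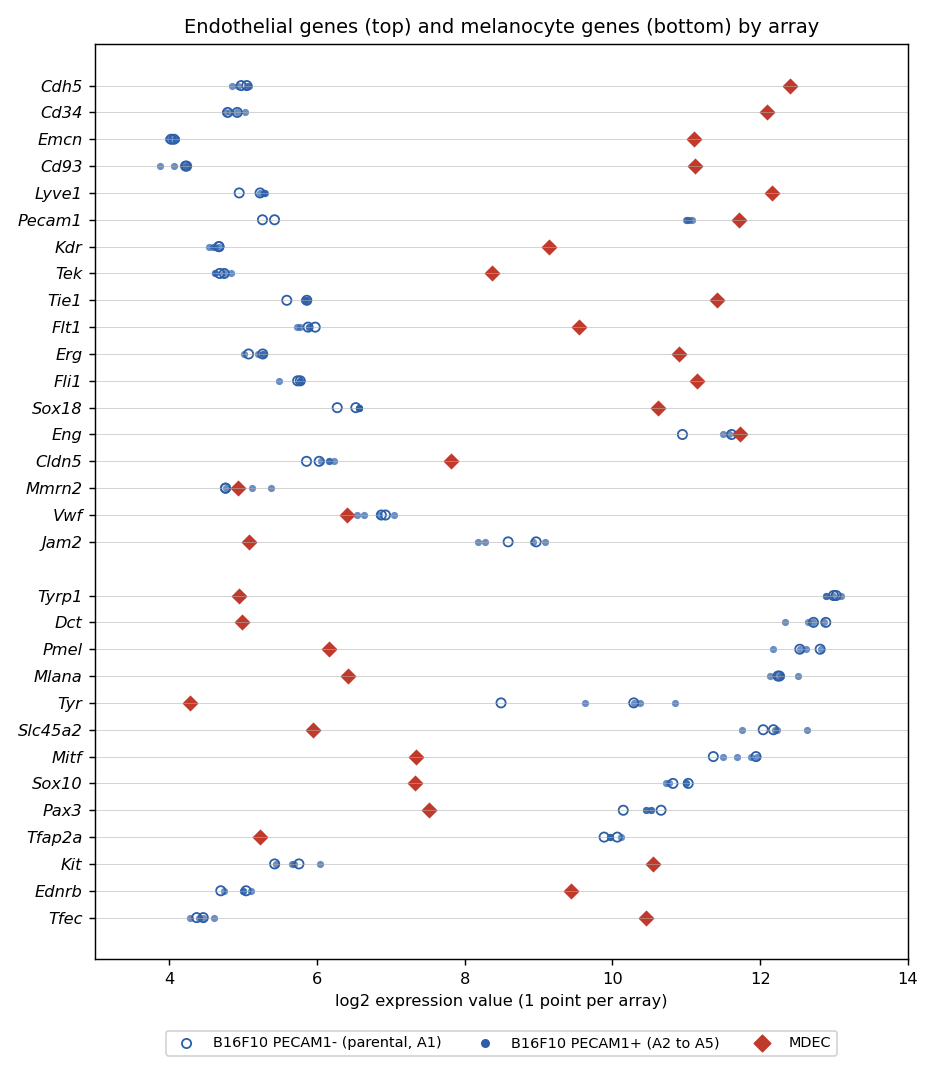
Each row is a gene and each point an array, placed by its log2 expression value; open circles are PECAM1- B16F10 samples, filled circles PECAM1+ clones and diamonds MDEC. Most endothelial genes have MDEC far to the right of all B16F10 points. Eng, Mmrn2, Vwf and Jam2 do not, and for Jam2 MDEC lies far to the left. Pecam1 of clones A2 to A5 lies beside MDEC, and Kit, Ednrb and Tfec depart from the other melanocyte genes.

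Among 25 transcription factors of endothelium, 9 were counted higher and 0 lower, with a median difference of 1.32. The ETS factors Erg and Fli1 were at 10.90 and 11.14 in MDEC against 5.01 to 5.27 and 5.49 to 5.78. Of the SOX-F factors, Sox7 (9.49 against 5.28 to 5.39) and Sox18 (10.62 against 6.28 to 6.58) were counted, and Sox17, at 5.47 against 4.86 to 5.09, was 0.48 higher and not counted. Lmo2 and Lyl1, which act with GATA factors, were 4.83 and 2.32 higher, Bcl6b 5.58 and Hhex 5.17 higher. Gata2, Tal1, Klf2, Klf4, Elk3 and Foxf1 passed the 2-fold limit alone, and Klf4 was counted (2.11) when clone A1 was left out, which put 2.77% of all genes on the higher side. Ets1, a factor often grouped with Erg, lay below the B16F10 range, at 9.17 against 9.77, 9.97 and 10.24, and Foxc1 was 1.82 lower.

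The same factors were read against their whole families. Of 25 ETS genes, 3 were counted higher (Erg, Fli1, Ets2), and the family's median difference was 0.09. Of 20 SOX genes, Sox7, Sox18 and Sox4 were counted higher and Sox10, Sox11 and Sox6 lower. Sox11 was at 5.01 in MDEC against 8.57, 9.37 and 9.85 in B16F10. Of the family, 10 members lay above and 6 below the B16F10 range, where 26.5% and 26.3% of all genes did, and the median difference was 0.11. In the GATA, TAL and LMO list of 14 genes, Gata3 (9.63 against 5.59 to 6.08) and Ldb2 (9.62 against 5.51 to 5.65) joined Lmo2 and Lyl1 as counted higher, while Gata1, Gata4, Gata5 and Gata6 differed by at most 0.31.

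Genes of blood clotting and vessel tone were mostly higher in MDEC, 10 of 18 counted with a median difference of 2.71. Plau, which encodes urokinase, was at 11.67 against 5.18, 5.36 and 5.41. Edn1 (endothelin 1) was at 10.93 against 5.01, 5.10 and 5.11. F8, Thbd (thrombomodulin), F2r (the thrombin receptor), Entpd1, Nos3 (endothelial nitric oxide synthase), Ece1, Procr and Ace were the others. F3, tissue factor, which starts coagulation, was the 1 counted lower, at 5.67 in MDEC against 8.96, 9.39 and 9.88 in B16F10. The anticoagulant genes Thbd and Procr therefore lay above the B16F10 range and the procoagulant F3 below it. F8, which encodes a clotting factor, lay above the range with Thbd and Procr, so the sides did not follow clotting function.

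Leukocyte adhesion genes and chemokines divided. Of 20, 7 were counted higher and 2 lower. Ccl2, a monocyte attractant, was at 12.40 in MDEC against 5.56, 5.92 and 6.83, and Sele (E-selectin) at 8.83 against 6.42 to 6.59. Vcam1 was at 6.93 against 4.65 to 5.02, a difference of 2.03 that fell under the limit without clone A1 (1.98), after median centring, and against the median or the PECAM1+ clones. Cxcl5, Csf1, Ccl7 and Tlr4 were the other genes counted higher. The interferon-induced chemokines went the other way. Cxcl10 was at 5.60 in MDEC against 9.74, 11.85 and 12.28, with parental cells the lowest B16F10 array, and Ccl5 at 7.43 against 8.26, 10.88 and 11.96. Interferon-induced Ifit1, Ifit2, Ifit3 and Rsad2 were also counted lower, 4 of 36 genes of the interferon and antigen presentation list. The shares over all genes were 2.71% counted higher and 2.06% lower. The list as a whole was not lower, with 14 genes above the B16F10 range, 9 below and a median difference of 0.14. Rsad2 was not counted (-1.80) without clone A1, where it was at 11.20. Irf8 (9.18 against 5.25 to 5.46) and H2-Q4 were counted higher, and B2m, Tap1 and Nlrc5 differed by at most 0.15.

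Vessel subtype markers were mixed. Of 15 arterial markers, 7 were counted higher: Cxcr4, Notch1, Efnb2, Notch4, Dll4, Jag1 and Unc5b. Efnb2, the arterial ephrin, was at 8.14 against 5.18 to 5.38. Ephb4, its venous receptor, was at 9.73 against 6.69 to 7.69. Hey1, Gja4 and Gja5 lay inside the B16F10 range, and Hey2 lay below it at 4.18 against 4.31 to 4.95. Of 15 venous and capillary markers, Fabp4 (10.22 against 3.99 to 4.26), Ephb4 and Vcam1 were counted, and Nr2f2, a venous regulator, was inside the range. Of 11 lymphatic markers, Lyve1, Mmrn1, Flt4 and Pdpn were counted higher and Itga9 lower. Flt4, VEGF receptor 3, was at 8.91 against 5.05, 5.27 and 5.29. Prox1, the master regulator of lymphatic identity, was at 5.75 in MDEC and 5.91, 6.05 and 6.34 in B16F10, below all 6 by a small margin. No subtype list had all its members on 1 side.

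Among 21 Notch genes, 6 were counted higher and 0 lower, against 2.71% and 2.06% of all genes. Mfng, a glycosyltransferase that tunes Notch, was at 10.80 against 5.93 to 6.17, and Nrarp, a Notch target, at 9.71 against 5.40 to 5.71. Of 8 GIMAP GTPases, genes known mainly from lymphocytes, 4 were counted higher, led by Gimap6 at 11.46 against 5.04, 5.21 and 5.34. Of 10 caveola genes, Cav1, Ehd2 and Cavin3 were counted higher. Cav1 was at 11.97 in MDEC and at 6.06, 6.25 and 7.80 in B16F10, while its partner Cav2 lay inside the B16F10 range, at 9.35 against 8.88 to 9.56.

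Of 21 ligands that act on endothelium, 8 were counted higher in MDEC. Apln (apelin) was at 11.87 against 6.37, 6.87 and 7.68, Pdgfd at 8.63 against 3.84 to 4.27 and Pgf (placental growth factor) at 11.59 against 7.44 to 9.43. Angpt2, a Tek ligand, was at 12.64 against 8.09, 10.17 and 10.57, and Pdgfb, Pdgfc, Igf1 and Ccn2 were 2.82, 2.72, 2.92 and 2.58 higher. Vegfa, the main VEGF, lay inside the B16F10 range, at 8.81 against 8.57, 8.92 and 10.05. Fgf1 was the 1 counted lower, at 5.91 against 7.68 to 8.63.

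The BMP and TGF-beta genes held some of the largest differences in both directions. Bmp4 was at 12.27 in MDEC against 5.17, 5.44 and 5.44 in B16F10, and its antagonist Grem1 at 10.43 against 5.34 to 5.86. Tgfbr2, Tgfb1 and Smad1 were 3.51, 3.01 and 2.67 higher. Bmpr1a, a type I receptor for BMP4, was at 3.40 in MDEC against 9.33, 9.40 and 9.50. Id2, a BMP-induced inhibitor of helix-loop-helix factors, was at 6.73 against 12.03, 12.05 and 12.68. Id1 lay inside the B16F10 range and Id3 also. In all, 5 of 32 genes were counted higher and 2 lower.

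**Figure D3:**
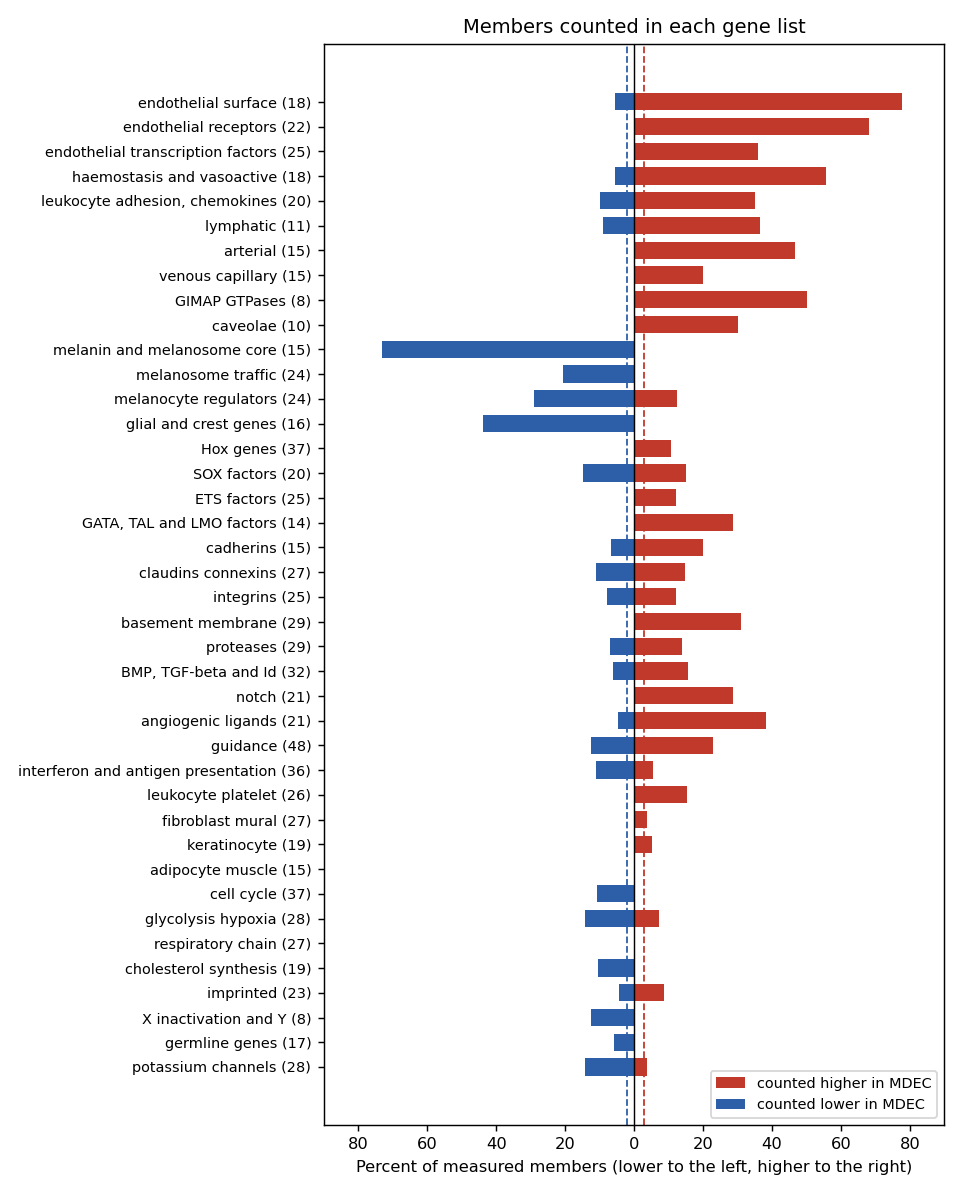
Bars give the percent of measured members (their number in brackets) counted higher, to the right, or lower, to the left, in MDEC for each of 40 gene lists; dashed lines are the shares over all genes, 2.71% and 2.06%. Endothelial surface molecules and receptors reach 77.8% and 68.2% higher, and melanin genes 73.3% lower.

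The melanocyte program was lower in MDEC. Across 4 lists with 77 genes measured, 29 (37.7%) were counted lower and 3 (3.90%) higher, with a median difference of -1.17. Of 15 genes of melanin and the melanosome core, 11 were counted lower and 0 higher, with a median of -5.11. Tyr (tyrosinase), the first enzyme of melanin synthesis, was at 4.29 in MDEC against 8.49, 10.29 and 10.84 in B16F10, with parental cells lowest. Slc45a2 and Slc24a5, transporters of the melanosome, were at 5.95 and 5.65 against 11.76 to 12.63 and 11.20 to 11.92. Mlana, a melanosome protein, was at 6.43 against 12.13, 12.25 and 12.52. Mcoln3, Gpr143, Gpnmb and Mc1r, the melanocortin receptor, were 5.11, 4.98, 4.94 and 4.09 lower. Oca2, at 5.54, was the 1 gene of the list inside the B16F10 range of 5.41 to 7.30.

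Of the genes that move and build melanosomes, Mlph, Rab38, Mreg, Rab27a and Myo5a were counted lower, 5 of 24, and 0 higher. Rab38 was at 5.75 against 10.86, 11.18 and 11.35, and Mlph, which links Rab27a to myosin Va on the melanosome, at 6.16 against 10.84, 11.62 and 11.93. Myo5a, 2.06 lower, was not counted without clone A4, after quantile normalization, or against the PECAM1- samples or the nearest array. The BLOC, HPS and AP-3 subunits, which serve lysosome-related organelles in many cells, lay under 2-fold from the B16F10 mean except for Hps5 (-1.498) and Ap3s1 (-1.07), which were lower, and Bloc1s6, which was 1.07 higher.

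Among 24 genes listed as regulators of the lineage, 7 were counted lower and 3 higher. Mitf was at 7.34 in MDEC against 11.37, 11.78 and 11.95. Sox10, a neural crest factor, was at 7.33 against 10.72, 10.90 and 11.03, and Pax3 at 7.53 against 10.15 to 10.66. Tfap2a (AP-2 alpha) was at 5.24 against 9.89, 9.97 and 10.12, and its paralogs Tfap2b and Tfap2c differed by at most 0.21. Mcam, a melanoma adhesion molecule also known from endothelium, was 3.96 lower. Erbb3 and the cell cycle kinase gene Cdk2 were 3.86 and 2.18 lower. Mcam and Cdk2 are not particular to the melanocyte lineage, though the list counts them. The members counted higher were 2 receptors and 1 transcription factor. Kit, the receptor of stem cell factor, was at 10.55 in MDEC against 5.43, 5.68 and 6.05. Ednrb, the endothelin B receptor, was at 9.44 against 4.70, 4.996 and 5.11, and Tfec, a relative of Mitf, at 10.46 against 4.29, 4.43 and 4.61. Kit and Ednrb are needed in melanocyte development, and every B16F10 array was far below MDEC for all 3.

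Schwann cell and crest genes were lower in 7 of 16 cases and higher in 0. Cdh19, a cadherin of Schwann cell precursors, was at 3.85 against 8.56, 8.87 and 9.77. Fabp7 was at 5.36 against 9.63 to 11.53, S100b at 5.46 against 8.24 to 10.46, and Mbp at 7.30 against 10.54 to 11.38. Pmp2 varied among B16F10 arrays from 4.29 in clone A1 to 10.27, so MDEC at 4.39 was inside the range. Without clone A1 it was 4.21 lower and counted.

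Of 15 cadherins, Cdh5, Cdh13 and Cdh6 were counted higher, Cdh19 lower and 11 not, with a median difference of 0.02, while Cdh2 (N-cadherin) was 1.19 lower at 9.35 against 9.96 to 11.24. Of 27 tight and gap junction genes, 4 were counted higher, 3 lower and 20 not. F11r (JAM-A) was at 10.88 against 4.50, 4.77 and 4.95, and Ocln (occludin), Tjp1 (ZO-1) and Gja1 (connexin 43) were 3.65, 2.42 and 2.34 higher. Gjc3 and Gjb2 (connexin 26) were at 5.39 and 5.57 against 10.51 to 11.28 and 10.11 to 11.67. F11r and Jam2, of the same receptor family, thus lay on opposite sides.

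Basement membrane genes were higher in 9 of 29 cases and lower in 0, against 2.71% and 2.06% of all genes. The collagen IV chains Col4a1 and Col4a2 of vessel walls were at 10.02 and 10.35 against 6.38 to 6.87 and 6.37 to 6.81, while Col4a3 to Col4a6 differed by at most 0.41 in size. Col18a1, Lamb1, Nid1, Lama5, Thbs1 and Fn1 were also counted higher, and Tnc (tenascin C) led at 11.46 against 4.88, 5.14 and 5.29. Of 25 integrins, Itga3, Itgb3 and Itga5 were counted higher and Itgb5 and Itga9 lower, and Itgav and Itgb1, their shared partners, were within 0.25 of B16F10. Of 29 proteases and inhibitors, Plau and its receptor Plaur, Mmp2 and Mmp11 were counted higher. Timp4 and Hpse (heparanase) were lower. Timp4 was at 5.03 in MDEC against 5.53, 7.75 and 10.57, with clone A1 the lowest B16F10 array. It was not counted against the PECAM1- samples or the nearest array. Hpse was not counted (-1.80) without clone A1.

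Guidance genes went both ways, 11 of 48 counted higher and 6 lower, against 2.71% and 2.06% of all genes. Sema3a was at 8.99 against 3.93 to 4.17, Efna1 at 11.36 against 6.44 to 6.79 and Plxna2 at 10.25 against 5.61 to 5.63. Unc5c, Epha3, Sema3b, Epha7, Robo1 and Sema3c were lower. In the receptor pairs, Robo4 was 3.93 higher and Robo1 2.37 lower, and Unc5b 2.35 higher and Unc5c 4.16 lower, so paralogs stood on opposite sides.

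Hox genes, which record position along the body axis, were counted higher in 4 of 37 cases and lower in 0, and by the 2-fold limit in 11 and 0. The shares over all genes were 2.71% and 2.06%, and by the 2-fold limit 6.44% and 6.85%. Hoxd8 was at 9.12 in MDEC against 4.61, 4.77 and 4.92. Hoxd4, Hoxd9 and Hoxd10 were 3.59, 3.50 and 3.23 higher, and Hoxd3 1.69. In the Hoxb cluster Hoxb3, Hoxb4, Hoxb5, Hoxb6, Hoxb7 and Hoxb9 were 1.21 to 1.80 higher. The 9 Hoxc genes measured differed by at most 0.21. Hoxa genes also stayed under 2-fold, with Hoxa10 below the B16F10 range at 6.96 against 7.61 to 8.14. The 2-fold genes were therefore confined to the Hoxb and Hoxd lists among the 37 measured. Hoxd11, Hoxd12 and Hoxd13 were within 0.28 of B16F10. The microRNA gene Mir10b, beside Hoxd4, was 1.81 higher.

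**Figure D4:**
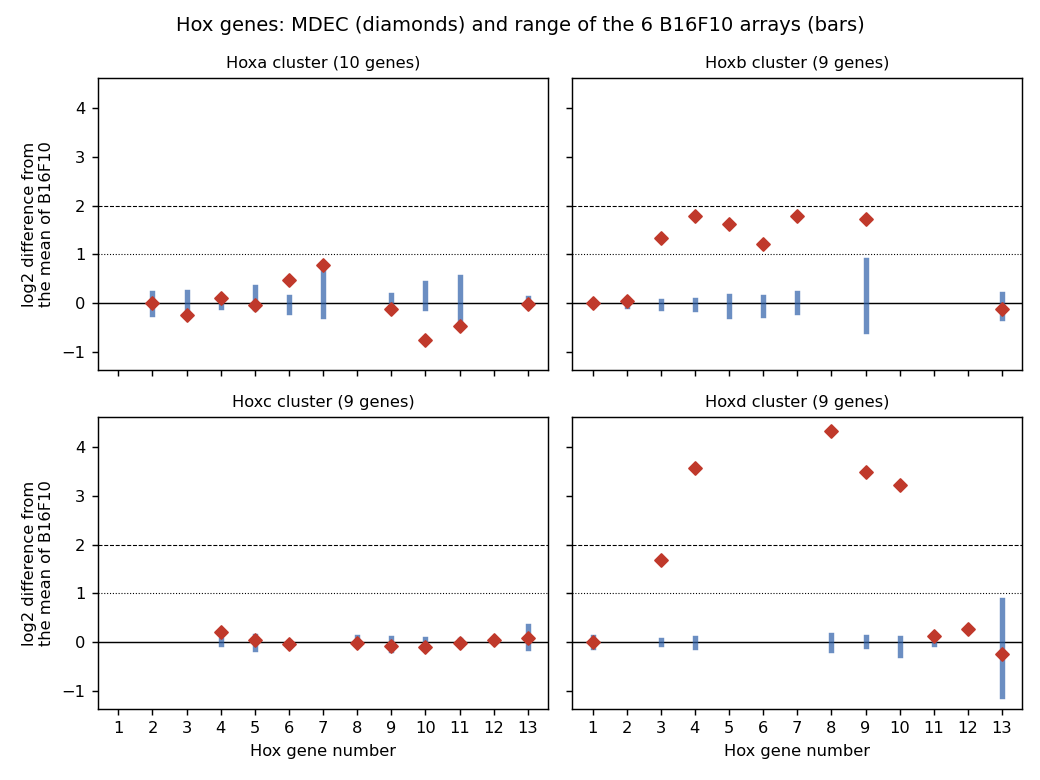
Each panel is 1 Hox cluster, with the gene number on the x axis and the log2 difference from the B16F10 mean on the y axis; diamonds are MDEC, bars the range of the 6 B16F10 arrays, and the dotted and dashed lines 2-fold and 4-fold. MDEC lies above 4-fold at Hoxd4, Hoxd8, Hoxd9 and Hoxd10, between the lines at Hoxd3 and 6 Hoxb genes, and near 0 in Hoxc.

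Cell cycle genes depended on which B16F10 cells they were compared with. Of 37 genes of DNA replication and mitosis, 4 were counted lower (Ccne1, Aurka, Cdkn2c and Ccnd2) and 0 higher, with a median difference of -1.72. Clone A1 was low for most of these genes itself, and its mean level over the list was 7.59, against 9.93 to 10.15 in the other B16F10 arrays and 8.18 in MDEC. For Mki67, the proliferation marker, MDEC was at 7.67, clone A1 at 6.71 and the other B16F10 arrays at 10.34 to 10.52. For Plk1, a mitotic kinase, the values were 7.51, 6.69 and 10.87 to 11.18. MDEC lay between clone A1 and the rest in both. Without clone A1, 20 of the 37 genes were counted lower, against 2.53% of all genes, with a median of -2.11.

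**Figure D5:**
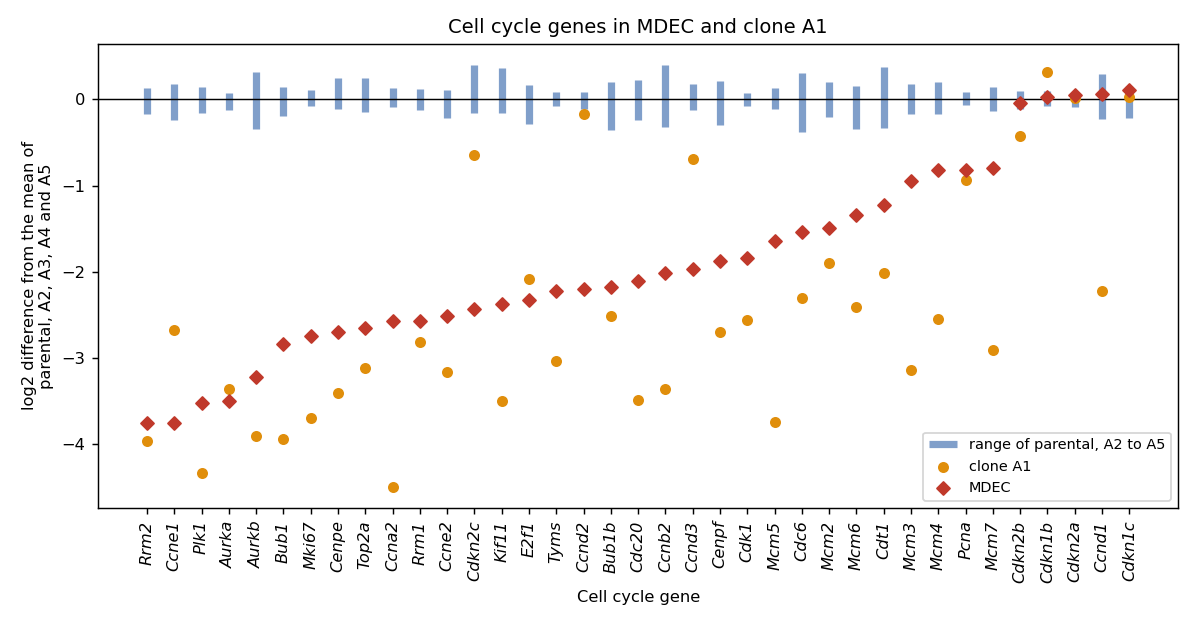
Each position on the x axis is a cell cycle gene, and the y axis is the log2 difference from the mean of parental cells and clones A2 to A5; bars give the range of those 5 arrays, circles clone A1 and diamonds MDEC. For most genes both MDEC and clone A1 lie well below the bars, with clone A1 the lower of them.

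The median differences of the metabolic lists were smaller than the 4-fold limit, though single members passed it. Of 27 respiratory chain genes, 0 were counted in either direction at 4-fold. At 2-fold 3 were lower (Ndufa4, Sdhb and Ppargc1a), against 6.85% of all genes. In this list 22 lay below the B16F10 range against 26.3% of all genes, with a median of -0.55. Of 19 cholesterol synthesis genes, Cyp51 (6.82 against 9.30 to 10.04) and Nsdhl were counted lower, against 2.06% of all genes. By the 2-fold limit 10 were lower, against 6.85% of all genes. In all, 16 of the 19 lay below the range, with a median of -1.08. Nsdhl, at -2.01, lost its count under several alternatives, among them quantile normalization and leaving out clone A2, A4 or A5. Serum and supplement differed with the cell type, as given above. Of 28 genes of glycolysis and the hypoxia response, 2 were counted higher (Adm and Egln3) and 4 lower (Aldoc, Ldhb, Slc2a3 and Pfkp). The shares over all genes were 2.71% and 2.06%. The median difference of the list was -0.12, and Slc2a1 was 1.16 higher.

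Some genes that stand outside the endothelial and melanocyte lists differed as much as the markers. Whether they belong to either lineage program was not tested. The largest negative difference among the 19938 genes was that of Kcnma1, a large-conductance potassium channel, at 4.27 in MDEC against 12.63, 12.76 and 12.93 in B16F10, a 360-fold difference. Among the 28 potassium channels measured, Kcnab2, Kcnj13 and Kcnq5 were also counted lower and Kcnd3 higher. Kcnj13 was at 5.39 in MDEC against 5.88, 7.55 and 11.61, with parental cells the lowest B16F10 array and clone A1 the highest. It was not counted without clone A1 or against the nearest array. Xlr, an X-linked lymphocyte-regulated gene, was at 2.59 against 8.69 to 8.96. Xist, the RNA of X inactivation, was at 5.46 against 8.15, 8.87 and 9.196, while the Y-linked Uty, Kdm5d and Eif2s3y differed by at most 0.07. Among 23 imprinted genes, Grb10 (10.68 against 4.98 to 5.07) and Ndn were counted higher and Plagl1 (6.98 against 10.81 to 10.96) lower. The largest positive difference was that of Ctla2a, an inhibitor of cathepsin-like proteases, at 11.25 against 3.28, 3.60 and 4.01, and Cd24a, Tc2n, Prom1, Myct1, Tcim and Ttc9 were 6.45 to 7.32 higher. Neto2, Emb, Scrn1 and Slc44a3 were 5.85 to 6.21 lower in MDEC.

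The distance to MDEC was similar for every B16F10 array. Taken singly, they differed from MDEC by 4-fold at 1037 (clone A3) to 1092 genes (clone A2). Clone A1 differed at 1051 and parental cells at 1073. Between pairs of B16F10 arrays, 1 to 34 genes were 4-fold apart without clone A1, and 274 to 314 with it. The mean level of the endothelial surface list was 5.83 to 6.20 in B16F10 and 9.79 in MDEC, and that of the melanin list 10.33 to 11.24 and 5.99. The endothelial surface list holds Pecam1 itself.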

How the data were processed

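Expression was read from the authors' deposited table of log2 values, 1 per probe set and array, for 7 arrays. The submitters' processing notes name Partek; its version and the steps of summarisation, background correction and normalization were not given in the sources used here, and the log2 scale was read from the values. Of 35557 probe sets, 21789 carried 1 gene symbol in the platform annotation, 1621 several and 12147 none; 21698 matched RefSeq (GRCm38.p6) by Entrez identifier. For 999 genes with several probe sets the one with the highest mean was used, which left 19938 genes. Between 6.86% and 8.57% of genes had the identical value in MDEC and a B16F10 array.

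Differences are MDEC minus the mean of 6 B16F10 arrays, computed in Python 3.11.15 (pandas 2.3.3, numpy 2.4.6) and checked on simulated data. MDEC had 1 array, so no test was made. The precision is limited by the number of arrays. The members, the 40 gene lists (828 genes measured) and the rules were chosen with earlier results of these data known. Named were 16 fixed genes, the 15 highest and 15 lowest counted genes without predicted genes, olfactory and vomeronasal receptors and small RNAs, and up to 5 counted members per list (2 where none counted). Further members were named after their values were seen. Predicted genes and small RNAs were 9 of the genes counted higher and 17 lower. Alternatives changed the fold, the reference, the scaling, the probe set rule, a filter on genes below 7, and the B16F10 arrays used.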

Additional observations from a re-analysis of the deposited data

Results flagged for a closer look

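Among the 165 named genes, 36 had 1 B16F10 array set apart from the other 5 by Dixon's gap ratio. Under this rule chance flags about 1 in 20 groups of normally spread values. Some flagged genes, among them Myct1, Fli1, Sox18, Ndn and Prom1, had the identical value in several B16F10 arrays. The 1 in 20 rate need not hold for such genes. The array of clone A1 was the lowest for 15 genes, with log2 levels of Aurka 7.66 (others 10.90 to 11.10), Ccne1 8.25 (others 10.69 to 11.11), Hoxd10 5.25 (others 5.49 to 5.59), Krt18 5.90 (others 5.99 to 6.04), Lyve1 4.95 (others 5.23 to 5.30), Mlph 10.84 (others 11.58 to 11.93), Neto2 7.59 (others 10.10 to 10.40), Notch4 6.097 (others 6.38 to 6.50), Nrarp 5.40 (others 5.60 to 5.71), Nsdhl 9.41 (others 9.79 to 10.01), Prom1 3.97 (others 4.15 to 4.16), Slc2a3 8.12 (others 9.09 to 9.58), Slc44a3 9.19 (others 10.32 to 10.85), Sox18 6.28 (others 6.53 to 6.58) and Tie1 5.59 (others 5.83 to 5.87). The array of clone A1 was the highest for 3 genes, with log2 levels of Cd68 10.07 (others 7.52 to 8.16), Tc2n 5.74 (others 3.49 to 4.20) and Tgfbr2 8.69 (others 8.06 to 8.27).

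Clone A2 was lowest for 4 genes, with log2 levels of Bmp4 5.17 (others 5.37 to 5.44), Cd53 3.93 (others 4.19 to 4.23), Ndn 4.33 (others 4.58 to 4.59) and Stab1 5.46 (others 5.64 to 5.67). Clone A3 was lowest for 3 genes, with log2 levels of Adipoq 3.83 (others 4.13 to 4.15), Hhex 4.62 (others 5.11 to 5.24) and Ocln 4.05 (others 4.21 to 4.27). Clone A4 was lowest for 4 genes, with log2 levels of Cxcl5 3.69 (others 4.09 to 4.26), Fli1 5.49 (others 5.74 to 5.78), Gimap5 3.14 (others 3.40 to 3.48) and Myct1 3.82 (others 4.13 to 4.14). Clone A4 was highest for 1 gene, with log2 levels of Id2 12.68 (others 12.03 to 12.19). Clone A5 was lowest for 1 gene, with log2 levels of Gimap4 4.05 (others 4.18 to 4.23). The array of parental cells was the lowest for 4 genes, with log2 levels of Cxcl10 9.74 (others 11.36 to 12.28), Grb10 4.98 (others 5.05 to 5.07), Kcnd3 5.55 (others 5.82 to 5.88) and Sox6 8.63 (others 8.95 to 9.08). The array of parental cells was the highest for 1 gene, with log2 levels of Cdh13 6.56 (others 5.31 to 5.69). 

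Clone A1 accounted for 18 of the 36, 15 low and 3 high. Its largest gaps were Aurka (3.24), Neto2 (2.50), Ccne1 (2.44) and Cd68 (1.91). The gap for Cxcl10 in parental cells was 1.62. Many of the other gaps were under 0.50 log2 units, and no cause was tested.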

How the results depend on the processing

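Against the 540 genes counted higher and 410 lower, a 2-fold limit gave 1285 and 1365, any distance outside the range 5290 and 5253, and a 2-fold limit without clone A1, an alternative chosen after seeing the data, 1366 and 1596. Measured from the nearest B16F10 array, 242 genes were lower. Melanocyte genes counted lower went from 29 to 48 with any distance. Leaving out each B16F10 array in turn gave 534 to 552 genes higher, 399 to 505 lower (505 without clone A1), 72 to 73 endothelial genes higher and 27 to 30 melanocyte genes lower. The other alternatives kept these counts within 1.5 times. Of 161 named genes counted, all kept their sign wherever measured. The calls lost were 0 to 5 per alternative and 21 against the nearest array. Median centring and quantile normalization shifted the median of all genes by -0.03. No paired analysis was possible because MDEC had 1 array. The limits are that MDEC's own spread, the detection of dim genes and the effect of the medium were not measured.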

Other observations

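Some gene families outside the 40 lists were looked at after their values had been seen, so their counts are descriptions. Of 9 small heat shock proteins, chaperones of the crystallin family, 5 were counted lower in MDEC and 0 higher. Cryab (alpha B crystallin) was at 6.92 in MDEC against 11.94, 12.16 and 12.30 (lowest, median and highest) in B16F10, and Hspb1, Hspb2, Hspb6 and Hspb8 were lower too. Of 9 PYHIN genes, interferon-inducible DNA sensors, Ifi202b, Ifi203, Aim2 and Ifi207 were counted higher. Aim2 was at 8.92 against 3.81, 4.02 and 4.09, and Ifi202b at 8.59 against 2.78, 2.96 and 3.10, while the other 5, Ifi205, Ifi208, Ifi209, Ifi213 and Ifi214, lay inside the B16F10 range. Over all genes, 2.71% were counted higher and 2.06% lower.

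Of 17 genes of prostaglandin synthesis and response, 2 were counted higher and 2 lower, with a median difference of 0.04. Ptgs2 (cyclooxygenase 2) was at 11.44 in MDEC against 5.21, 5.27 and 5.35, and the receptor gene Ptgfr at 7.35 against 4.94 to 5.20. The prostaglandin D synthases Ptgds and Hpgds were at 7.99 and 4.72 against 11.11 to 12.42 and 7.61 to 8.58. The collagen receptor kinases Ddr1 and Ddr2 were both lower, at 6.04 and 6.36 against 9.67 to 10.32 and 9.29 to 10.29. The TNF receptor relatives Tnfrsf23 and Tnfrsf26 were at 10.57 and 11.01 against 4.62 to 5.01 and 5.07 to 5.27, and the third measured, Tnfrsf22, was 1.67 higher and not counted.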
